A study of Bos taurus with 20 samples.

Results

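Recipient cows that later bore light calves were compared with recipient cows that bore middle-weight calves, to ask which genes of maternal blood separate the low end of calf birth weight (BW). Of the 20 cows in the series, 13 entered this comparison. They were grouped by the calf BW in the sample labels, with 6 cows of calves of 38 kg or less in the light group and 7 cows of calves between 39 and 47.4 kg in the middle group. The remaining 7 cows, whose calves were heavier, were used only to set the low end against the high end. Calf BW was 34.7 ± 3.08 kg (SD, n = 6) in the light group and 43.1 ± 3.15 kg (SD, n = 7) in the middle group. The border between the groups lay between calves of 38 and 39 kg.

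All cows carried 1 female calf from an embryo that was produced in vitro from oocytes of beef donors and sex-sorted semen. Whole blood was drawn from a vein of the tail at day 63 of gestation into Tempus tubes, in which cells are lysed and RNA is stabilized, and 1 library was made per cow. The labels name no treatment that set cows apart, and calf BW, recorded at parturition months after the draw, was the variable of the study. The study calls the recipients lactating dairy cows in its text and Angus in its list of data, and the age, parity and embryo sire of each cow were not used here. These and calf BW cannot be told apart where they moved together, and each group member is 1 animal sampled once.

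Whole blood holds the transcripts of neutrophils, lymphocytes, monocytes, eosinophils, platelets and red cell precursors, and neutrophils and lymphocytes make up most of its nucleated cells in cattle. Early in gestation the bovine conceptus secretes interferon tau, which induces interferon-stimulated genes in maternal leukocytes, and later the binucleate cells of the placenta release pregnancy-associated glycoproteins and placental lactogen into maternal blood. Neutrophils store lactoferrin, peptidoglycan recognition protein and cathelicidins in granules that are filled during their maturation in bone marrow. In a bulk measurement, fewer cells of a type and less RNA per cell cannot be told apart.

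The deposited counts of the 13 cows ranged from 24632077 to 39892111 per library, with a median of 33799990, and all pairs of libraries differed by more than sampling noise (chi-square per degree of freedom of at least 12.65 over 78 pairs). Levels are given below in CPM, which are counts scaled to library size with 1 set of factors over all 20 cows, and a log2 fold change is the light group minus the middle group, with ± for its standard error. Each cow is named by the BW of its calf, so that the 30 kg cow is the dam of the 30 kg calf. Total counts were 31259608 ± 5040501 (SD, n = 6) in the light group and 34893260 ± 3510279 (SD, n = 7) in the middle group (two-sided exact permutation test, p = 0.156). Mitochondrially encoded transcripts took 1.36 to 1.78% of the counts in the light group and 1.64 to 1.88% in the middle group (exact permutation test, p = 0.463). Some libraries stood apart. The 30 kg cow had the lowest total count, the lowest mitochondrial share and the highest interferon-stimulated transcripts. The 35 kg cow stood apart in neutrophil granule transcripts, the 41.5 kg cow in striated muscle transcripts and the 45 kg cow in collagen transcripts. Some of the values that moved without such a cow, but not all, are given with and without it.

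With edgeR's quasi-likelihood test, 0 of 15733 genes (0.0%) differed between the groups at an FDR below 0.05 (Benjamini-Hochberg), and the smallest FDR was 0.975. The number was also 0 with limma voom. DESeq2's Wald test gave 1 gene (0.00636%), which was TCAP. An unadjusted p below 0.05 was found for 749 genes with edgeR (4.76%), 461 higher in the light group (2.93%) and 288 lower (1.83%), 639 with limma voom and 813 with DESeq2. By sign alone, 8073 genes (51.3%) were higher in the light group, and the median log2 fold change was 0.0036. None of the genes described below passed the FDR in edgeR, so their values are given as measured differences and not as DEG, and the edgeR FDR was 0.975 or more for each gene tested. Every p rests on the spread between cows, with 1 library per cow. Genes were ordered by their unadjusted p.

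The width of the intervals shows what these 13 cows could resolve for 1 gene at a time. The 95% interval of the log2 fold change from limma voom lay within 2-fold in both directions for 12931 genes (82.2%), and within 1.5-fold for 10801 genes (68.7%). Its median half-width was 0.241 on the log2 scale. A difference smaller than a gene's half-width could not be told from 0 with this number of cows. The intervals are not adjusted for the number of genes tested, so a larger difference need not pass the FDR.

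TCAP (Entrez 513257), which encodes telethonin, a protein that caps titin at the sarcomere Z-disc, had the smallest p. Its CPM lay between 9.17 and 13.03 in the light group (median 10.8) and between 13.5 and 23.4 in the middle group (median 17.4). Every cow of the light group thus lay below every cow of the middle group. The log2 fold change was -0.68 ± 0.13, with an FDR of 0.975 in edgeR and of 0.00866 in DESeq2. With each of the 13 cows left out in turn, the log2 fold change stayed between -0.74 and -0.59, and DESeq2 called TCAP in 8 of these 13 fits. In cows of heavy calves the CPM was between 9.26 and 36.3 (median 16.0), a range that spans both groups.

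**Figure D1:**
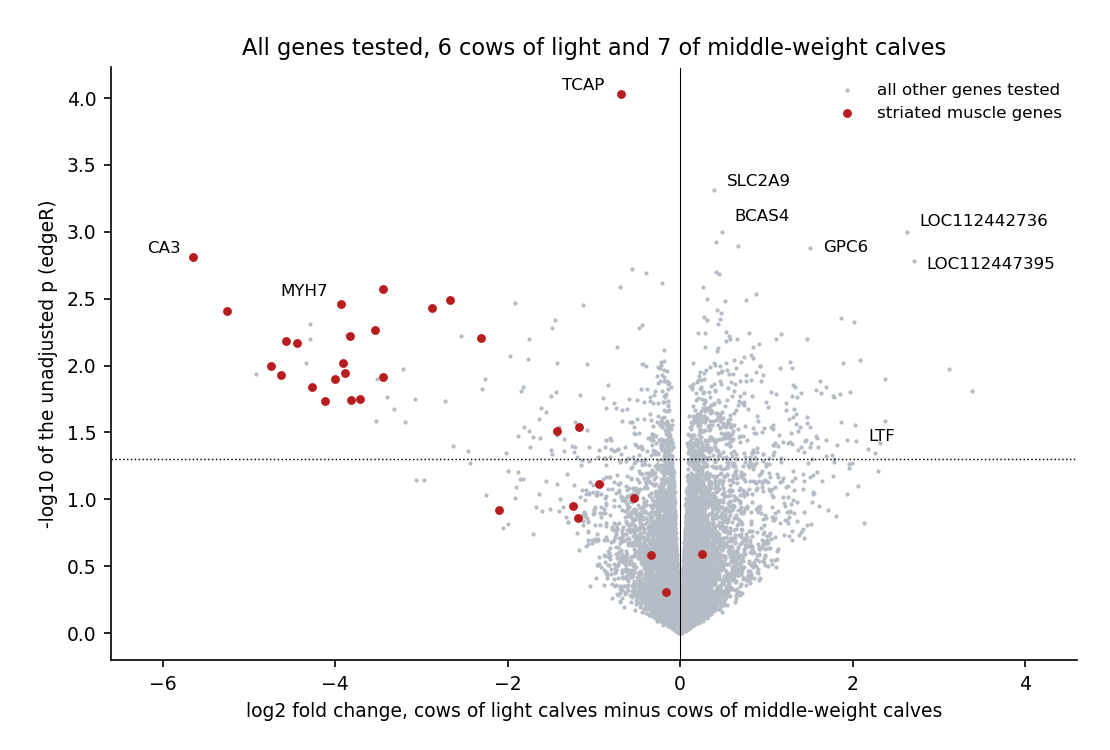
Each point is 1 of the 15733 genes tested, with the log2 fold change (light minus middle) on the x axis and the negative log10 of the unadjusted edgeR p on the y axis. Red points are 32 striated muscle genes, of which 31 lie left of 0, and the dotted line marks an unadjusted p of 0.05.

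TCAP was 1 of 8 genes (0.0508% of those tested) whose CPM ranges did not overlap between the groups. Among so many genes, some without overlap also arise when cows are grouped at random, and how many was not tested. Lower in every cow of the light group were also MYL6B, a myosin light chain of slow muscle and non-muscle cells (0.932 to 2.03 CPM against 2.04 to 20.3), and the non-coding LOC101907503 (1.61 to 2.16 against 2.19 to 3.05). Higher in every cow of the light group were TNFRSF10D, a receptor of the TRAIL death ligand (45.8 to 59.7 CPM against 30.0 to 45.6), and APOBEC3H, a cytidine deaminase that restricts retroelements (17.1 to 20.2 against 12.6 to 16.9). The others were SLC16A9, a transporter of the monocarboxylate family (1.81 to 2.11 CPM against 0.535 to 1.60), the non-coding LOC101902504 (0.897 to 1.21 against 0.480 to 0.894) and CCN5, a secreted matricellular protein (0.924 to 1.28 against 0 to 0.894). The gap between the groups was smaller than the range within either group for each of these 8 genes.

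The other genes with the smallest p and higher levels in the light group were of several kinds. SLC2A9 (Entrez 100337051), a transporter of urate and hexoses, had 269 to 348 CPM in the light group (median 285) and 201 to 274 in the middle group (median 217). Its log2 fold change was 0.39 ± 0.088, 4 of 6 cows of the light group lay above the whole middle group, and the 2 highest cows of the middle group were the 39 and 40 kg cows, next to the border. BCAS4 (Entrez 617710), a subunit of the BLOC-1 complex of lysosome-related organelles, had 31.5 to 53.2 CPM (median 40.9) against 23.7 to 36.7 (median 29.6), with a log2 fold change of 0.49 ± 0.12. TNFRSF10D (Entrez 782274) had a log2 fold change of 0.42 ± 0.10.

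IL12B (Entrez 281857), the subunit shared by the cytokines interleukin 12 and interleukin 23, had 5.02 to 8.87 CPM in the light group (median 7.03) and 3.004 to 6.18 in the middle group (median 3.88). The log2 fold change was 0.67 ± 0.17, and 5 of 6 cows of the light group lay above the whole middle group. GPC6 (Entrez 536153), a cell surface heparan sulfate proteoglycan, had 2.68 to 9.93 CPM (median 6.57) against 0.994 to 5.01 (median 1.74). Its log2 fold change of 1.51 ± 0.38 was the largest among the protein-coding genes of this group, and was 1.87 without the 39 kg cow, which held the 5.01 CPM. The 35 and 37 kg cows, at 2.90 and 2.68 CPM, overlapped the middle group.

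UBE2L6, the ubiquitin-conjugating enzyme that attaches ISG15 to proteins, had a median of 29.1 CPM in the light group and 22.1 in the middle group (log2 fold change 0.45 ± 0.12). VAMP2, a vesicle SNARE of exocytosis, had medians of 24.4 and 20.8 CPM (0.27 ± 0.073). WDR5B, a WD-repeat protein, had medians of 15.6 and 12.2 CPM (0.31 ± 0.089). C25H7orf50, a gene of unclear function, had medians of 95.1 and 78.1 CPM (0.42 ± 0.11). The other genes of this set were non-coding and had low counts in both groups. LOC112442736 lay between 0.361 and 1.58 CPM against 0 and 0.535 (2.63 ± 0.64), LOC112447395 between 0.106 and 1.31 against 0 and 0.267 (2.71 ± 0.70), and LOC107132207 between 2.65 and 5.02 against 1.23 and 3.06 (0.88 ± 0.25).

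Of the 12 genes with the smallest p and lower levels in the light group, 7 belong to striated muscle or its contractile machinery, which is described next. Among the other 5, PPP1R1B (Entrez 282459), an inhibitor of protein phosphatase 1 known from dopamine signalling, had 7.52 to 26.6 CPM in the light group (median 14.8) and 24.7 to 56.0 in the middle group (median 29.0). Its log2 fold change was -1.12 ± 0.32, and 4 of 6 cows of the light group lay below the whole middle group. RUSC2, an adaptor of vesicle transport, had medians of 1.46 and 2.68 CPM (-0.69 ± 0.19). FAM118A, a gene of unclear function, had medians of 26.7 and 37.0 CPM (-0.40 ± 0.11). LOC531557 had medians of 26.6 and 33.5 CPM (-0.56 ± 0.15), and LOC101904435 had medians of 22.3 and 25.8 CPM (-0.21 ± 0.056), each with 5 of 6 cows of the light group below the whole middle group.

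**Figure D2:**
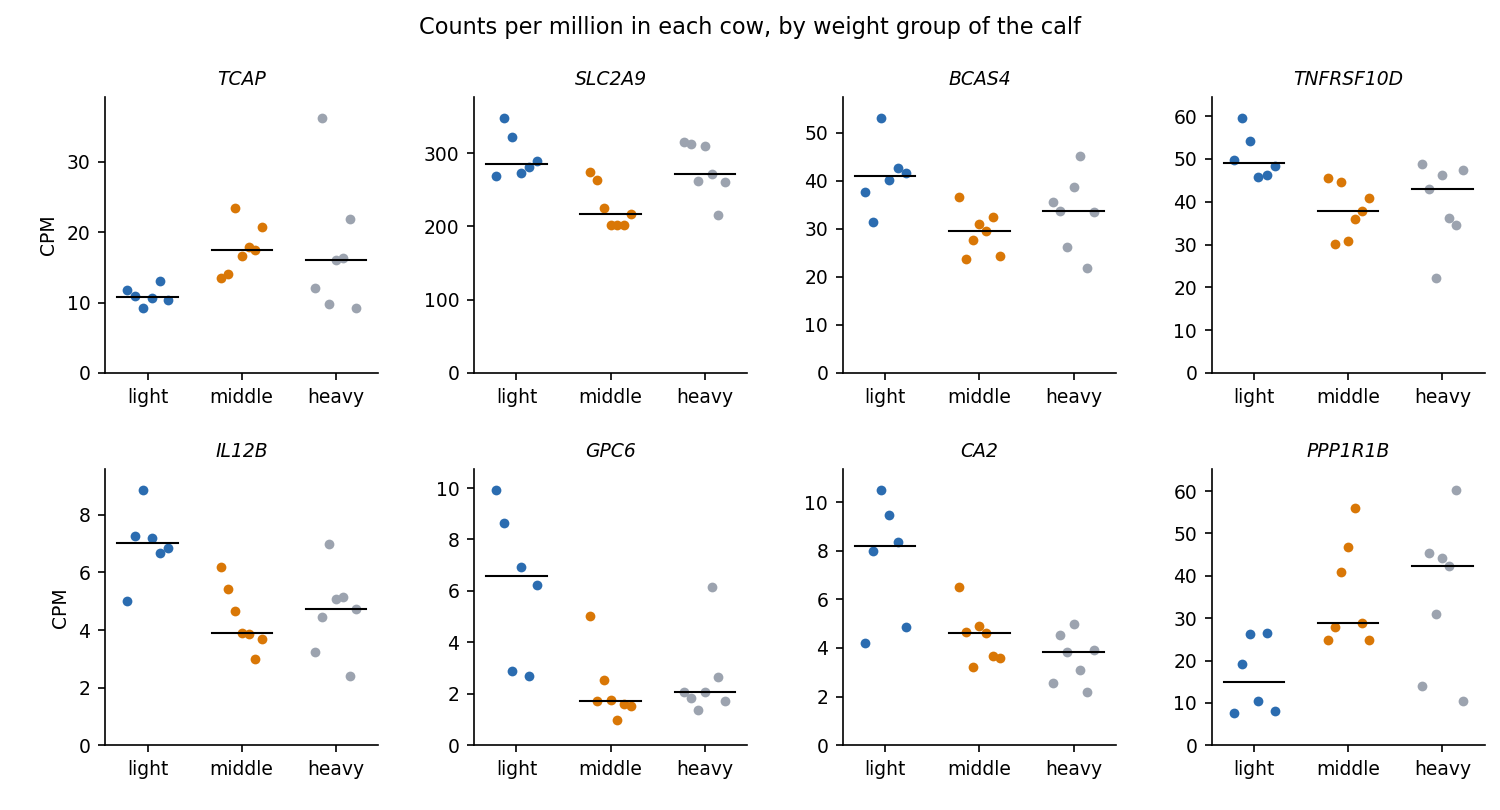
Points are the CPM of single cows in the light, middle and heavy groups, and lines are group medians, for 8 genes named in the text. TCAP and TNFRSF10D do not overlap between the light and middle groups, whereas the heavy group overlaps the light group in each of the 8 panels.

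Transcripts of striated muscle were low in the light group and uneven in the middle group. A list of 32 striated muscle genes was drawn up after these values were seen, so it has no test. Their summed level was between 61.9 and 153 CPM in the light group (median 76.2), with the highest value in the 32 kg cow. In the middle group it was between 69.8 and 2148 CPM (median 308). The 41.5, 47.4, 39 and 46 kg cows had 2148, 767, 349 and 308 CPM, whereas the 40, 43 and 45 kg cows had 74.3, 69.8 and 75.7 CPM, within the range of the light group. Cows of heavy calves were split in the same way, with 695, 349 and 324 CPM in the 50, 56 and 55 kg cows and 61.2 to 95.5 in the other 4.

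Of the 32 genes, 31 were lower in the light group, and the median log2 fold change was -3.50. Of the 32, 24 were lower at an unadjusted p below 0.05, as were 1.83% of all genes tested. Since the genes were chosen for this pattern, these counts only describe it. MYH7, the slow skeletal and cardiac myosin heavy chain, had 3.73 to 35.0 CPM in the light group and 4.44 to 759 in the middle group (-3.94 ± 1.13). ACTA1, skeletal muscle actin, had 6.63 to 16.8 CPM against 6.40 to 166 (-2.31 ± 0.72, and -1.52 without the 41.5 kg cow). MB, myoglobin of oxidative fibres, had no count in 5 of 6 cows of the light group and 3 of 7 of the middle group, with 37.4 CPM in the 41.5 kg cow. Structural proteins of the sarcomere and its anchors were likewise highest in the 41.5 kg cow, among them DES (-2.87 ± 0.83) and CSRP3 (-2.67 ± 0.76, and -1.55 without that cow). CA3, the carbonic anhydrase of slow fibres, had 20.3 CPM in the 41.5 kg cow and at most 0.422 CPM in any cow of the light group (-5.65 ± 1.45). Genes of fast fibres were present too, such as MYH2, with 146 CPM in the 50 kg cow and 89.4 in the 47.4 kg cow. Family members of myosins and troponins are similar in sequence, and the treatment of reads with several matches is not given in the sources used here.

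Without the 41.5 kg cow, the median log2 fold change of the 32 genes was -2.33. With the mean level of this list as a covariate, an alternative chosen after seeing the data, 0 genes had an FDR below 0.05 in edgeR and 583 had an unadjusted p below 0.05. The level of TCAP in the 40, 43 and 45 kg cows of the middle group, in which other muscle genes were low, was 14.1, 16.6 and 17.9 CPM, above the whole light group. The collagen genes COL1A1 and COL1A2 had 51.4 and 17.9 CPM in the 45 kg cow and at most 2.17 and 0.844 CPM in any other cow. The epidermal keratin genes KRT1 and KRT5 had no count in the 13 cows. The keratin gene KRT14 and the fat gene ADIPOQ were above 0 among the 13 only in the 41.5 kg cow, at 0.214 and 0.428 CPM. FABP4, also of fat, was at most 0.617 CPM in the 13 cows, in the 45 kg cow. The part of such transcripts in the comparison of other genes was not tested.

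**Figure D3:**
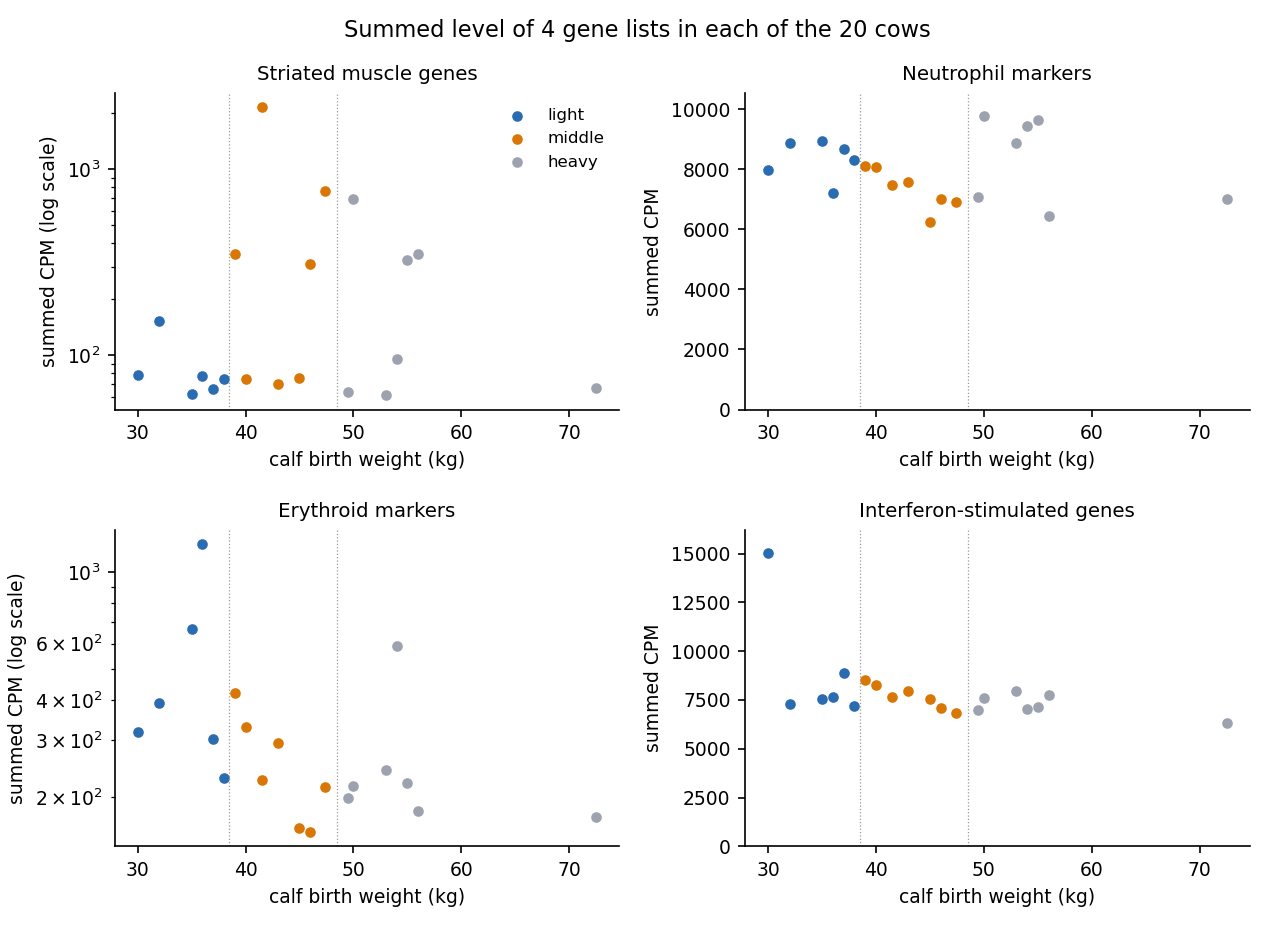
The summed CPM of 4 gene lists is plotted against calf BW in kg for the 20 cows, with dotted lines at the borders of the groups. Striated muscle genes exceed 300 CPM in 4 cows of the middle and 3 of the heavy group, and interferon-stimulated genes stand at 15015 CPM in the 30 kg cow.

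Neutrophil markers lay mostly above 0 in the comparison of the groups. Of the 17 markers tested, 14 were higher in the light group and 3 lower, with a median log2 fold change of 0.13. Of the 17, 7 were higher at an unadjusted p below 0.05, as were 2.93% of all genes tested. The markers named next are all among the higher ones. S100A8, S100A9 and S100A12, calcium-binding alarmins of the neutrophil cytosol, had log2 fold changes of 0.34 ± 0.12, 0.32 ± 0.13 and 0.35 ± 0.14. S100A12 had 1015 to 1648 CPM in the light group (median 1333) and 758 to 1280 in the middle group (median 1099), and 4 of 6 cows of the light group lay above the whole middle group. CSF3R, the receptor of granulocyte colony-stimulating factor, had medians of 1937 and 1781 CPM (0.24 ± 0.11). CXCR2, which guides neutrophils to chemokines, had medians of 204 and 150 CPM (0.30 ± 0.13), and TREM1, an amplifier of their activation, 62.1 and 53.4 CPM (0.25 ± 0.089).

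The high end gave the same sign. In the 6 cows of heavy calves without the 72.5 kg cow, 15 of the 17 neutrophil markers were higher than in the middle group, with a median of 0.24. The summed level of the markers was 8862 to 9762 CPM in the 50, 53, 54 and 55 kg cows. It was 7065, 6447 and 7002 CPM in the 49.5, 56 and 72.5 kg cows, within the range of the middle group. Within the middle group the summed level ran from 8108 and 8064 CPM in the 39 and 40 kg cows to 6232, 6996 and 6923 CPM in the 45, 46 and 47.4 kg cows. In the contrast of the low-end step with the high-end step, described further on, 15 of the 17 markers were positive, with a median of 0.35. An unadjusted p below 0.05 was found for 5 of the 17 (3.66% of all genes in that contrast). No gene of any kind passed the FDR there. With the mean level of the neutrophil markers as a covariate, 172 of all genes tested had an unadjusted p below 0.05, in place of 749.

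Neutrophil granule genes moved with 1 cow and with the neutrophil markers. Of 14 such genes tested, 12 were higher in the light group, with a median of 0.24. Of the 14, 5 were higher at an unadjusted p below 0.05, as were 2.93% of all genes tested. Without the 35 kg cow the median was -0.07. With the neutrophil marker score as a covariate it was 0.0056, with 8 of 14 higher. In that fit 0 of the 14 had an unadjusted p below 0.05 in edgeR, against 1.09% of all genes. With so low a share, a count of 0 among 14 genes says little. LTF, lactoferrin of the secondary granules, had 48.5 CPM in the 35 kg cow and 1.49 to 2.62 in the other 5 cows of the light group, against 0.446 to 5.66 in the middle group. Its log2 fold change was 2.04 ± 0.89 with that cow and -0.13 without it, and DESeq2 gave no p for it. PGLYRP1, which binds bacterial peptidoglycan, had 6.34 CPM in the same cow and a median of 0.911 in the light group and 0.619 in the middle group (1.51 ± 0.62, and 0.49 without that cow). OLFM4, of a neutrophil subset, had 12.6 CPM in the same cow (0.59 ± 0.24, and 0.40 without it).

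CHI3L1, a chitinase-like protein of the granules, was less dependent on that cow. Its CPM was 98.7 to 154 in the light group (median 112) and 59.4 to 109 in the middle group (median 77.4), 5 of 6 cows of the light group lay above the whole middle group, and its log2 fold change was 0.46 ± 0.14 and 0.36 without the 35 kg cow. ARG1, arginase of granulocytes, had medians of 1.62 and 0.571 CPM (1.34 ± 0.55). The cathelicidin genes CATHL1, CATHL3 and CATHL4 had no count in the 13 cows.

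Among the beta-defensins, small antimicrobial peptides, 4 of 6 genes tested were higher in the light group, with a median of 0.61. Of the 6, 2 were higher at an unadjusted p below 0.05, as were 2.93% of all genes tested. With the neutrophil marker score as a covariate the median was 0.12. In that fit 0 of the 6 had an unadjusted p below 0.05 in edgeR, against 1.09% of all genes, so this count says little. DEFB1 had 4.03 to 11.4 CPM in the light group (median 5.74) and 2.11 to 5.88 in the middle group (median 3.34), with a log2 fold change of 0.91 ± 0.29. DEFB10 had 2.37 to 19.4 CPM (median 9.04) against 1.82 to 8.86 (median 3.86), with a log2 fold change of 1.22 ± 0.47. The 32, 35 and 37 kg cows were high in both genes and the 30 kg cow, at 4.38 and 2.37 CPM, lay within the middle group. DEFB7 had medians of 8.31 and 7.65 CPM (0.31 ± 0.29). Reads may be shared between members of this family, and likewise among globin and OAS genes.

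Erythroid transcripts were high in some cows of the light group. Globin genes took 0.0074 to 0.109% of the counts in the light group and 0.0049 to 0.028% in the middle group (two-sided exact permutation test, p = 0.0676), with the highest share in the 36 kg cow. With 1 cow left out, the exact permutation p ranged from 0.0189 to 0.177, the latter without the 36 kg cow, and was below 0.05 in 4 of 13 cases. Of 16 erythroid markers tested, 13 were higher in the light group. Of the 16, 4 were higher at an unadjusted p below 0.05, as were 2.93% of all genes tested. The median was 0.40 with all cows and 0.18 without the 36 kg cow. HBB, beta globin, had 70.7 to 1049 CPM in the light group (median 206) and 46.6 to 272 in the middle group (median 92.4), with a log2 fold change of 1.57 ± 0.57 and 0.90 without the 36 kg cow. CA2, the carbonic anhydrase of red cells, was spread more evenly, with 4.22 to 10.5 CPM (median 8.18) against 3.24 to 6.50 (median 4.63). Its log2 fold change was 0.77 ± 0.22, with 4 of 6 cows above the whole middle group, and the 30 and 38 kg cows within it. SLC25A37, the mitochondrial iron importer of erythroid cells, had medians of 59.2 and 51.4 CPM (0.21 ± 0.092), and HBA1, alpha globin, 0.841 and 0.267 CPM (2.26 ± 1.03, and 1.40 without the 35 kg cow). The low share of globin in whole blood is usual for ruminants, whose circulating red cells hold little RNA.

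Interferon-stimulated genes were higher in the light group as a list, and the difference rested on the 30 kg cow. Of 48 genes tested, 46 were higher in the light group with a median of 0.23. Of the 48, 5 were higher at an unadjusted p below 0.05, as were 2.93% of all genes tested. Without the 30 kg cow, 25 of 48 were higher, with a median of 0.0074, and 3 had an unadjusted p below 0.05 (783 of all 15653 genes in that fit). Without the 38 and 39 kg cows at the border, but with the 30 kg cow, the median was 0.31 and 14 had an unadjusted p below 0.05 (5.91% of all genes in that fit). The summed level was 15015 CPM in that cow and between 7199 and 8875 in the other 5 cows of the light group, against 6826 to 8507 in the middle group.

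OAS2, an antiviral oligoadenylate synthetase, had 284 CPM in the 30 kg cow and 16.7 to 50.8 in the other 5 cows of the light group, against 10.6 to 47.1 in the middle group. Its log2 fold change was 1.45 ± 0.63 and 0.11 without that cow. MX2, a dynamin-like antiviral GTPase, had 1595 CPM in the same cow and 111 to 201 in the others of the light group, against 115 to 297 (1.17 ± 0.56, and -0.07 without it). RSAD2, viperin, gave 1.17 ± 0.54 and -0.06 without that cow, and IFI27 gave 0.87 ± 0.40 and 0.21. IRF7, the regulator of type I interferon genes, had 72.3 CPM in that cow and 25.7 to 33.4 in the others of the light group, against 19.3 to 34.2 in the middle group (0.45 ± 0.24, and 0.12 without that cow).

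Other members of the list gave the following values. OAS1X had its highest value in the 37 kg cow, at 202 CPM (0.84 ± 0.38, and 0.28 without that cow). UBE2L6 kept its direction whichever cow was left out, between 0.39 and 0.51. GBP5, a guanylate-binding protein of the interferon gamma response, had medians of 57.5 and 49.4 CPM, with 4 of 6 cows of the light group above the whole middle group (0.26 ± 0.14). SAMD9, the member with the most counts, had medians of 1037 and 991 CPM (0.15 ± 0.10, and 0.05 without the 30 kg cow).

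Markers of other leukocytes had smaller medians, except those of eosinophils. Of 13 monocyte markers, 12 were higher in the light group with a median of 0.12. Of the 13, 2 were higher at an unadjusted p below 0.05, as were 2.93% of all genes tested. CD163, the haemoglobin scavenger receptor that glucocorticoids induce, had 106 to 179 CPM in the light group (median 158) and 79.7 to 144 in the middle group (median 124), with a log2 fold change of 0.39 ± 0.15. CD14, the co-receptor of endotoxin, had medians of 61.4 and 54.6 CPM (0.23 ± 0.11), and LYZ, lysozyme, had 1844 and 1795 CPM (0.15 ± 0.17).

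Eosinophil markers went the other way. All 5 tested were lower in the light group, with a median of -0.38, and none had an unadjusted p below 0.05. With the erythroid marker score as a covariate the direction turned, with all 5 higher and a median of 0.39. Their summed level was 66.6 to 174 CPM in the light group and 52.4 to 318 in the middle group, with the highest values in the 46 and 45 kg cows. IL5RA, the receptor of the eosinophil growth factor interleukin 5, had medians of 47.5 and 45.7 CPM and a log2 fold change of -0.38 ± 0.41, so its medians and its fold change pointed in different directions. SMPD3, a sphingomyelinase used as a marker, had medians of 21.3 and 25.6 CPM (-0.48 ± 0.42), and PTGDR2, the prostaglandin D2 receptor, 15.6 and 19.7 CPM (-0.30 ± 0.28). In cows of heavy calves all 5 markers were higher than in the middle group, with a median of 0.28.

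Lymphocyte markers had medians near 0. Of 14 natural killer markers, 11 were lower in the light group (median -0.10), of 19 T cell markers 12 were lower (median -0.04), of 13 B cell markers 7 were lower (median -0.01), and all 7 plasma cell markers were lower (median -0.05). None of these 53 markers had an unadjusted p below 0.05. With the erythroid marker score as a covariate, the medians of natural killer and T cell markers were 0.035 and 0.023. Among the cytotoxic genes, GNLY, granulysin, had medians of 43.5 and 73.1 CPM (-0.36 ± 0.29), NCR1, an activating receptor, 43.7 and 44.5 CPM (-0.19 ± 0.19), and TBX21, the T-bet regulator, 146 and 143 CPM (-0.10 ± 0.11). The named T cell genes lay above 0, unlike most of their list. CCR7, the homing receptor of naive cells, was at 0.11 ± 0.076, CD4 at 0.12 ± 0.09 and LEF1 at 0.04 ± 0.089. Among B cell and plasma cell genes, the kinase BLK gave -0.19 ± 0.12, the lineage factor PAX5 -0.14 ± 0.18, the inhibitory receptor CD22 0.00 ± 0.15, the joining chain JCHAIN -0.17 ± 0.15 and IRF4 -0.09 ± 0.11.

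Platelet markers were higher in 12 of 16 genes with a median of 0.09, and none had an unadjusted p below 0.05. The direction turned with the neutrophil or the erythroid marker score as a covariate, where 4 of 16 were higher, with medians of -0.14 and -0.07. SELP, P-selectin of platelet granules, had 22.3 CPM in the 37 kg cow (0.50 ± 0.26, and 0.23 without it). ITGA2B, the fibrinogen receptor subunit, gave -0.13 ± 0.12, and TUBB1, platelet tubulin, -0.07 ± 0.18. Of 22 trophoblast markers in the annotation, 16 had no count in the 13 cows, among them 10 pregnancy-associated glycoprotein genes, the placental lactogen gene CSH2 and the interferon tau genes IFNT2 and IFNT3. A count of 0 in these files need not mean that a transcript was absent, since RPS23 and RPL35A, ribosomal protein genes that every cell uses, also had no count. Only TFAP2C passed the count minimum, at up to 1.24 CPM (-0.39 ± 1.01).

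Antigen presentation genes had medians near 0. Of 16 MHC class II genes, 12 were higher in the light group (median 0.05), and of 16 class I and immunoproteasome genes, 10 were higher (median 0.03). BOLA-DQB, a beta chain of class II, had 294 CPM in the 47.4 kg cow and a log2 fold change of -1.76 ± 0.74, which was -0.39 without that cow. Class II genes are polymorphic and differ in copy number between haplotypes, so reads of an animal may be counted on a related gene. BOLA-DMA, which loads peptides on class II, had medians of 134 and 113 CPM (0.16 ± 0.071), and CD74, the invariant chain, 4784 and 4556 CPM (0.08 ± 0.10). Of class I, TAPBPL, a peptide editor, gave 0.15 ± 0.069, TAP2, of the peptide transporter, -0.19 ± 0.093, and JSP.1, a heavy chain gene, 0.35 ± 0.22.

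Innate sensing genes had small differences. Of 21 interleukin 1 and inflammasome genes, 16 were higher in the light group (median 0.12). An unadjusted p below 0.05 was found for 2 higher genes (2.93% of all genes) and 1 lower gene (1.83%). NLRP3, the inflammasome sensor, had 46.2 to 69.2 CPM in the light group and 34.3 to 53.5 in the middle group (0.25 ± 0.11), and IL18RAP, the accessory chain of the interleukin 18 receptor, gave 0.43 ± 0.19 and 0.27 without the 37 kg cow. IRAK3, which restrains signalling of Toll-like and interleukin 1 receptors, had medians of 68.9 and 83.1 CPM (-0.19 ± 0.064), with 4 of 6 cows of the light group below the whole middle group. IL1B itself had medians of 303 and 231 CPM, but ranges of 243 to 353 and 189 to 364 (0.24 ± 0.13).

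Of 9 Toll-like receptors, 6 were higher (median 0.04), with TLR4 at 0.11 ± 0.084, TLR5 at 0.17 ± 0.14 and TLR8 at 0.15 ± 0.13. Of 18 complement genes, 11 were higher (median 0.04), with the anaphylatoxin receptors C5AR1 at 0.12 ± 0.082 and C5AR2 at 0.18 ± 0.13, and the decay-accelerating factor CD55 at 0.05 ± 0.072. None of these 27 genes had an unadjusted p below 0.05.

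Metabolic genes gave a few members with small p. Of 22 glycolysis genes, 11 were higher in the light group (median -0.0012). Of the 22, 2 were higher at an unadjusted p below 0.05, as were 2.93% of all genes tested. These 2 were the kinases that set the level of fructose 2,6-bisphosphate, an activator of glycolysis. PFKFB4 had 79.4 to 91.8 CPM in the light group (median 87.0) and 59.0 to 84.6 in the middle group (median 72.3), with 5 of 6 cows above the whole middle group (0.24 ± 0.081). PFKFB3 had 321 to 453 CPM (median 376) against 273 to 368 (median 296), with a log2 fold change of 0.28 ± 0.10. PKM, pyruvate kinase, gave 0.08 ± 0.062. Of 22 cholesterol genes, 19 were higher (median 0.10), with SREBF1, the regulator of lipid synthesis, at 0.23 ± 0.093 and IDI1, an isomerase of the mevalonate pathway, at 0.22 ± 0.10, while SREBF2, the main regulator of cholesterol synthesis, was at 0.01 ± 0.083. Without the 38 and 39 kg cows at the border, 9 of the 22 had an unadjusted p below 0.05, as did 5.91% of all genes in that fit.

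Genes of ribosomes and of the respiratory chain had many members on 1 side of 0 and very small medians. Of 76 cytosolic ribosomal protein genes, 66 were higher in the light group, with a median of 0.034 and 0 genes at an unadjusted p below 0.05, and RPL11 (0.11 ± 0.052), RPS9 (0.10 ± 0.056) and RPLP1 (0.06 ± 0.055) lay in this range. Of 76 nuclear respiratory chain genes, 61 were higher, with a median of 0.040. COX7A2, a subunit of cytochrome oxidase, was at -0.26 ± 0.092, ATP5F1E, the epsilon subunit of ATP synthase, at 0.22 ± 0.10 and ATP5F1A, its alpha subunit, at 0.06 ± 0.064. Of 13 mitochondrially encoded genes, 11 were lower in the light group (median -0.052), with ND5 at -0.14 ± 0.071, ND1 at -0.08 ± 0.057 and ATP6 at -0.05 ± 0.067. Without the 30 kg cow, whose mitochondrial share was the lowest, this median was -0.00047.

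Among stress, hormone and growth genes, the medians were between -0.064 and 0.069. Of 14 glucocorticoid response genes, 9 were higher, and besides CD163 the smallest p were for CXCR4, the chemokine receptor of leukocyte retention in bone marrow (0.28 ± 0.15), and TSC22D3, an anti-inflammatory target of the receptor (0.14 ± 0.089). Of 18 immediate early genes, 11 were higher, and MYC, the regulator of growth, had medians of 138 and 127 CPM (0.15 ± 0.049), while JUNB (0.12 ± 0.077) and JUND (0.02 ± 0.075) had larger p. Of 17 heat shock genes, 11 were lower, and HSPH1, a co-chaperone of HSP70, had medians of 43.8 and 49.9 CPM with 5 of 6 cows of the light group below the whole middle group (-0.16 ± 0.055). DNAJA1 was at -0.07 ± 0.051 and HSP90AA1 at 0.04 ± 0.048. Of 33 mitotic and replication genes, 24 were lower, with TTK (-0.37 ± 0.19), BIRC5 (-0.25 ± 0.13) and MKI67 (-0.15 ± 0.10) among them. Of 11 genes of the insulin-like growth factor axis, which carries growth signals from growth hormone, 5 were higher, with STAT5B at 0.06 ± 0.034 and IGFBP4 at -0.35 ± 0.30. Of 20 SR protein and SR kinase genes, which act in splicing, 9 were higher, with SRSF9 at 0.09 ± 0.048, SRSF5 at 0.12 ± 0.062 and SRSF11 at -0.02 ± 0.037.

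**Figure D4:**
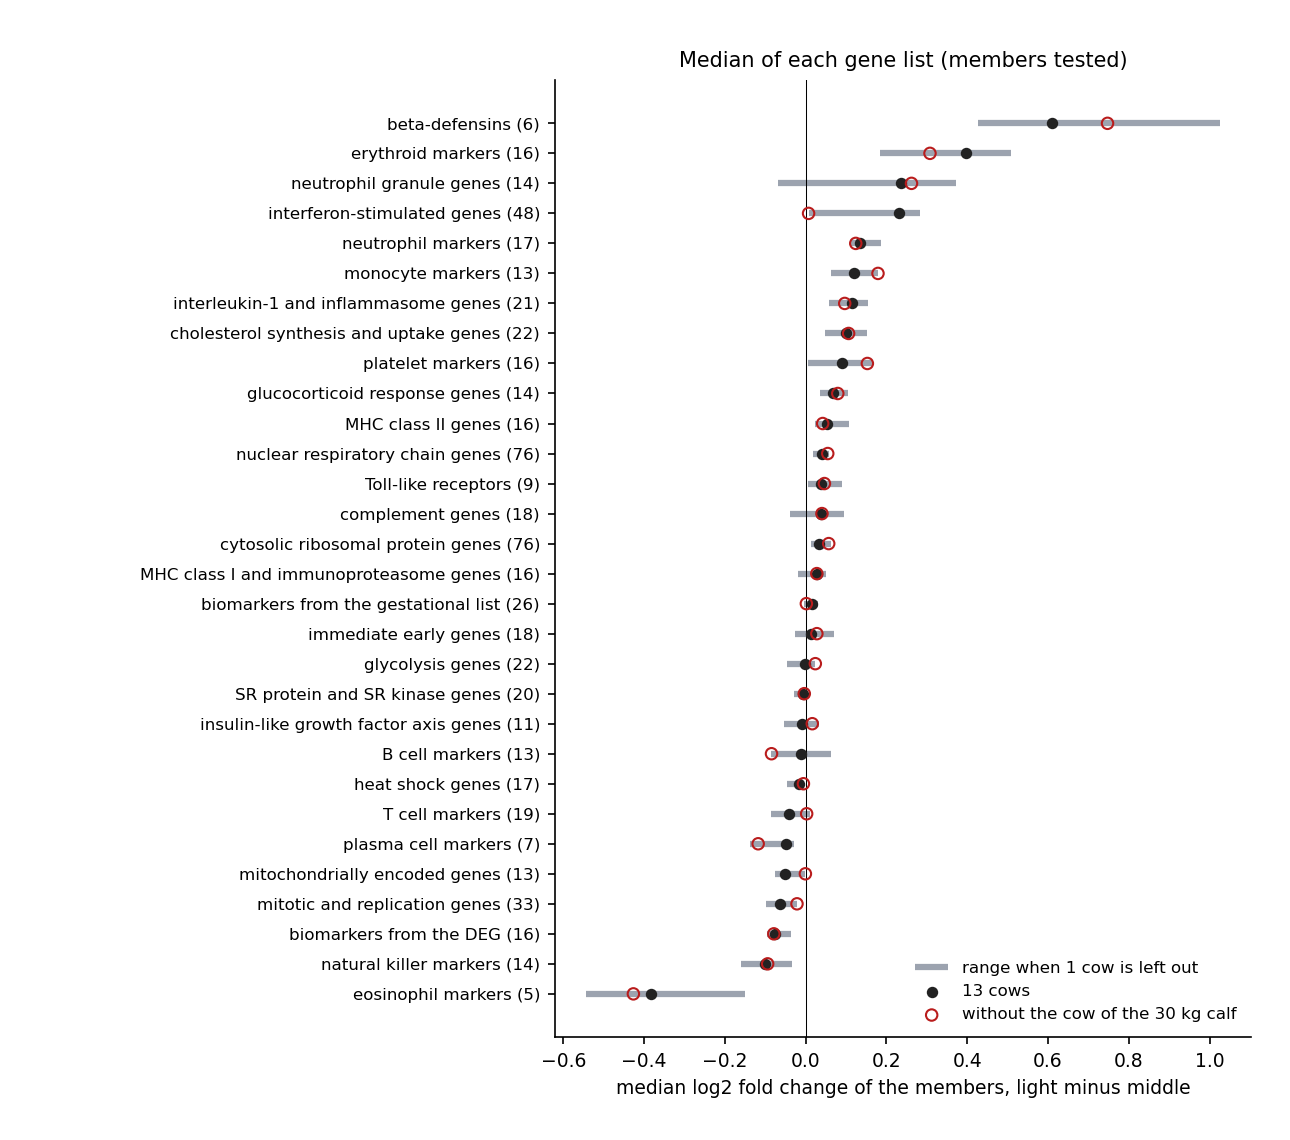
For each list, the black point is the median log2 fold change of its members (light minus middle) in 13 cows, the grey bar the range of that median when 1 cow is left out, and the red circle the value without the 30 kg cow, with the number of members tested in brackets. The median of interferon-stimulated genes moves from 0.23 to 0.0074 without that cow, and that of neutrophil granule genes reaches -0.07 without the 35 kg cow.

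The study picked 2 lists of biomarker genes on these cows, so their directions here are not independent evidence. Of the 26 genes from its list of gestational genes, 16 were higher in the light group (median 0.016) and 0 had an unadjusted p below 0.05 in edgeR. LINS1 had the smallest p, with medians of 8.10 and 8.93 CPM (-0.17 ± 0.082), and ND2, a subunit of respiratory complex I, gave -0.06 ± 0.071. Of the 16 genes from its DEG that passed the count minimum, 7 were higher. An unadjusted p below 0.05 was found for 6 of the 16, 3 higher (2.93% of all genes) and 3 lower (1.83%). These were UBE2L6, DEFB10 and LTF, higher in the light group, and ASMTL (-1.76 ± 0.55), N4BP2 (-0.21 ± 0.094) and MTUS2 (-0.81 ± 0.38), lower. ASMTL had 0.343 to 1.49 CPM in the light group and 0.769 to 7.14 in the middle group, with the highest values in the 46, 41.5 and 47.4 kg cows. TBC1D5, the member with the most counts, gave -0.11 ± 0.082.

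Whether the low-end step differed from the high-end step was tested in 19 cows, without the 72.5 kg cow. The step from middle to light was set against the step from heavy to middle. The value is 0 where both steps have the same size and direction, positive where the ends on balance lie above the middle group, and negative where they lie below it. A change at the low end alone gives the same value as an equal change at the high end alone. The contrast therefore cannot show which end a difference belongs to. Of 16206 genes, 0 (0.0%) had an FDR below 0.05 in edgeR, with a smallest FDR of 0.999, and 593 (3.66%) had an unadjusted p below 0.05. DESeq2 also gave 0, with 681 genes at an unadjusted p below 0.05. The cows of heavy calves differed from the middle group in 1042 genes at an unadjusted p below 0.05 (6.43%), with a smallest FDR of 0.368. The low-end and high-end comparisons share the cows of the middle group.

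For most genes with the smallest p in this contrast, the median of the middle group lay below or above those of both ends. The contrast picks genes of this pattern, so the pattern only describes them. SLC2A9 had a value of 0.70 ± 0.17, with medians of 285, 217 and 290.4 CPM in the light group, the middle group and the 6 cows of heavy calves in this fit. DERA, of deoxyribose metabolism, had medians of 31.7, 27.8 and 32.1 CPM (0.45 ± 0.11), and HERC1, a large ubiquitin ligase, 956, 911 and 1108 CPM (0.39 ± 0.10). LOC107133158 had medians of 2.22, 1.21 and 2.97 CPM (1.82 ± 0.45). AOX1, aldehyde oxidase, was at or near 0 in most cows, with 52.1 CPM in the 35 kg cow and 28.8, 21.5 and 16.6 in the 55, 49.5 and 50 kg cows (14.04 ± 3.74, and 9.07 without the 35 kg cow), and it had too few counts to be tested in the 13 cows.

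In the negative direction, MYL6B had medians of 1.62, 3.46 and 1.85 CPM (-3.60 ± 0.80, and -2.05 without the 41.5 kg cow), and CSRP3 1.18, 3.95 and 1.38 CPM (-4.79 ± 1.13, and -2.55 without that cow). LOC524576 had 429 CPM in the 40 kg cow and medians of 47.6, 71.0 and 42.8 CPM (-2.99 ± 0.70, and -1.71 without that cow). LOC531557 had medians of 26.6, 33.5 and 26.9 CPM (-0.999 ± 0.24), and CA3 had a value of -8.20 ± 2.01, and of -5.28 without the 41.5 kg cow.

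**Figure D5:**
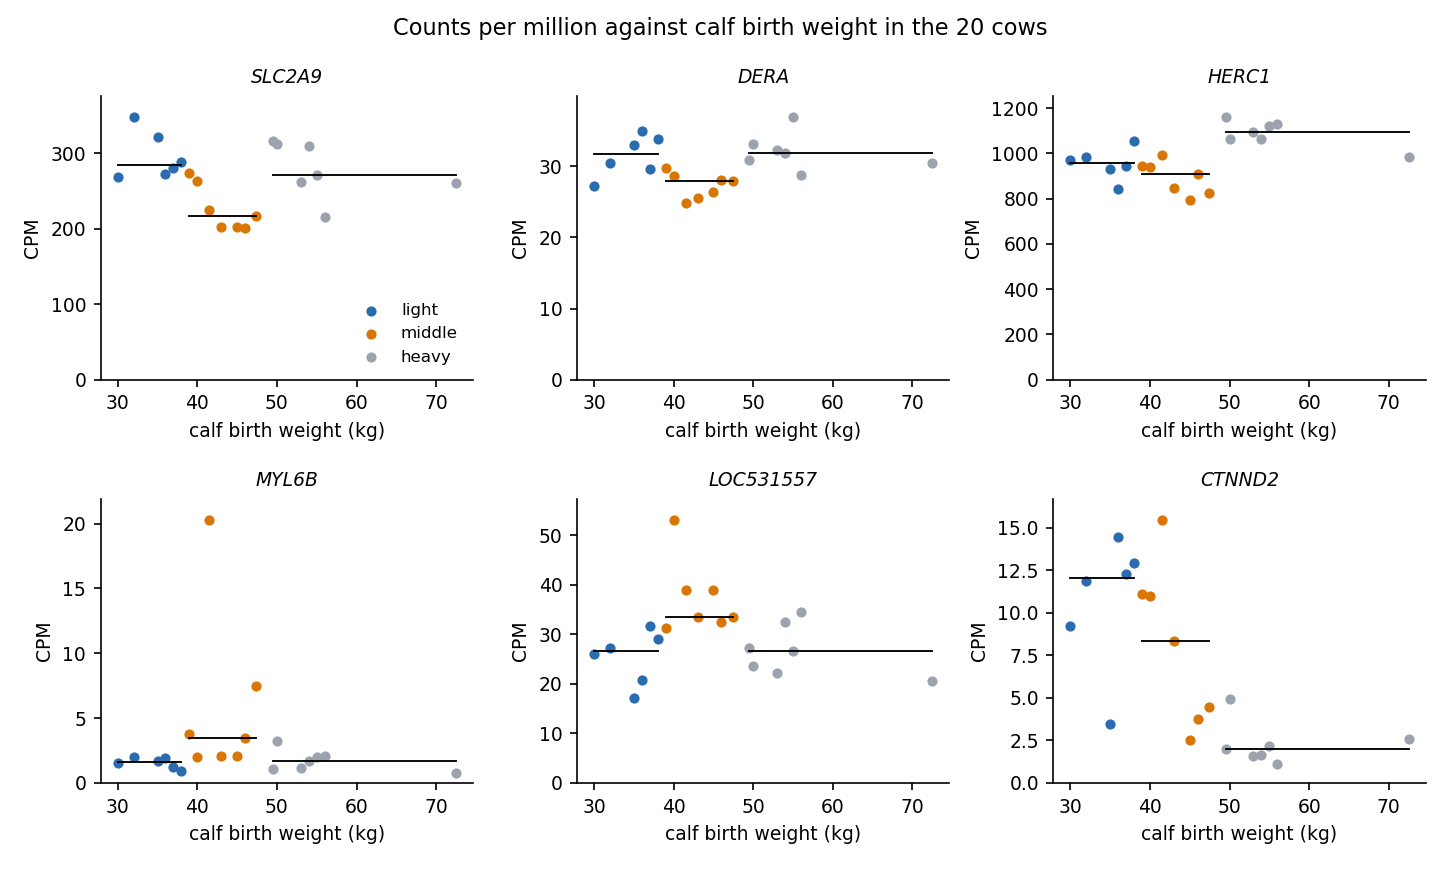
CPM of 6 genes is plotted against calf BW in kg for the 20 cows, with a line at the median of each weight group. SLC2A9 and DERA are lowest in the middle group and LOC531557 is highest there, whereas CTNND2 is at most 4.93 CPM in every cow of a calf of 45 kg or more.

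CTNND2, delta catenin of cell junctions, had 3.48 to 14.5 CPM in the light group (median 12.1) and 2.50 to 15.5 in the middle group (median 8.33), with a log2 fold change of 0.40 ± 0.40. The middle group was divided by weight, with 8.33 to 15.5 CPM in the 39, 40, 41.5 and 43 kg cows and 2.50 to 4.48 in the 45, 46 and 47.4 kg cows. In cows of heavy calves it lay between 1.12 and 4.93 CPM, a log2 difference from the middle group of -1.86 ± 0.43, and the contrast of the steps was -1.46 ± 0.68 (FDR 0.999), and -0.97 without the 41.5 kg cow. SRPK2, a kinase of SR splicing proteins, had 193 to 296 CPM in the light group (median 251) and 243 to 427 in the middle group (median 259), with a log2 fold change of -0.19 ± 0.13, and a difference of heavy from middle of 0.38 ± 0.13. Its contrast of the steps was 0.18 ± 0.23 (FDR 0.999), and between 0.10 and 0.42 with 1 cow left out.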

How the data were processed

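The authors sequenced RNA of whole blood, which the labels call poly(A) RNA, as paired-end reads, and the deposited files hold raw read counts per gene, 1 file per cow, with no normalization. Per the submitters' processing notes, FastQC 0.11.9, Trimmomatic, STAR 2.7.0b and featureCounts of Subread 2.0.3 were used. The labels and the methods name different stranded library kits, and no batch is named. Gene names were matched by Entrez identifier.

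Cows were grouped by the calf BW in the labels. A gene was tested where 5 or more of the 13 cows had 10 counts or more, with edgeR 4.0.16 (quasi-likelihood test, TMM factors), with Benjamini-Hochberg adjustment over all genes tested. The contrast of the low-end with the high-end step used 19 cows. DESeq2 1.42.0 and limma 3.58.1 (voom) were alternatives, run in R 4.3.3. Library measures were compared by an exact permutation test in Python 3.11.15 with numpy 2.4.6. The tests were checked on simulated counts.

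The members and the 31 gene lists were chosen with earlier results of these data known, and 2 further lists (striated muscle; connective tissue, skin and fat) after the values were seen. Named genes were the 12 with the smallest p in each direction, the 2 with the smallest p and the most abundant of each list, the 5 with the smallest p in each direction of the step contrast, and CTNND2, LTF, MX2, GBP5, IRF7 and SRPK2. Genes whose ranges did not overlap, members of the 2 further lists, and further list members with an unadjusted p below 0.05 were named after their values were seen. Some genes that these rules select are not reported here. Lists have no test and are described by counts and medians. Alternatives were other tools, scalings, filters, covariates, sets of cows, and each cow left out.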

Additional observations from a re-analysis of the deposited data

Results flagged for a closer look

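For 38 of 292 sets of values (1 gene or library measure in the cows of 1 group), the highest or lowest cow lay further from its neighbour than Dixon's criterion allows. Chance flags about 1 in 20 groups, and genes of the same cow are not independent. None of these values was given a cause here.

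In the light group the 30 kg cow was high in interferon-stimulated genes, with 1595 CPM of MX2, 283.5 of OAS2, 248.9 of RSAD2, 21.46 of IFI27, 72.26 of IRF7 and 1490 of SAMD9. The same cow was low in mitochondrial transcripts, at 1.363% of its counts, with 568.2 CPM of ND5, 878.5 of ND1 and 4081 of ATP6, and in PKM, at 921.4 CPM. The 35 kg cow was high in LTF at 48.5 CPM, PGLYRP1 at 6.343, CHI3L1 at 154.4 and AOX1 at 52.08. The 37 kg cow was high in OAS1X at 202.2 CPM. The 32 kg cow was the highest of its group in muscle genes, with 34.99 CPM of MYH7, 16.83 of ACTA1, 8.997 of MYH2, 1.583 of MB and 0.4222 of CA3.

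In the middle group the 41.5 kg cow stood apart in muscle genes, with 758.9 CPM of MYH7, 37.38 of MB, 29.2 of CSRP3, 20.32 of CA3 and 20.27 of MYL6B, and also in TBC1D5 at 123.2 and LOC112442736 at 0.5348 CPM. The 45 kg cow had 51.43 CPM of COL1A1 and 17.86 of COL1A2. The 40 kg cow had 429.2 CPM of LOC524576 and 53.03 of LOC531557. The 47.4 kg cow had 294.2 CPM of BOLA-DQB, 2523 of RPLP1 and 576.5 of ATP5F1A. The 46 kg cow had 427.2 CPM of SRPK2 and 108.1 of ITGA2B, and the 39 kg cow had 5.014 CPM of GPC6.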

How the results depend on the processing

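No gene passed an FDR of 0.05 under any edgeR or limma voom alternative, whereas DESeq2 called 1 gene, TCAP. With 1 cow left out, DESeq2 called between 0 and 10 genes, with 10 without the 32 kg cow, 9 without the 39 kg cow, 2 without the 41.5, 37, 40 or 30 kg cow, and 0 without the 35, 36, 47.4 or 45 kg cow. The number of genes with an unadjusted p below 0.05 was 749, and it was 1441 with no count filter, 172 with the neutrophil marker score as covariate, 357 with the erythroid marker score, 1154 with log2 total count and 1228 for the slope on calf BW in the 13 cows. Without single cows it ranged from 501 to 897. The cause of these shifts was not tested. The contrast of the steps gave 0 genes in edgeR with 19 or 20 cows and with each cow left out, and 0 in DESeq2. Of 3727 values for 139 named genes under the alternatives, 3650 kept their direction or moved by less than the spread. Of the others, 76 had the opposite sign, on 36 genes, and 1 was newly past its threshold. CD22 changed sign most often, in 17 settings. Of 889 list medians, 864 kept their direction or moved by less than the spread, and 25 moved. Of 52 values for library measures, 5 newly had an exact permutation p below 0.05, for the total count (0.0467 without the 32 kg cow) and for the globin share (0.0189, 0.0442, 0.0492 and 0.0411 without the 38, 37, 30 and 39 kg cow). No paired analysis was possible because the weight groups hold different cows, each sampled once.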
